A study of Mus musculus with 4 samples.

Results

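Fatty acid and galactolipid enzymes of myelin were examined as a group of 7 genes, Fasn, Fads2, Elovl7, Cers2, Fa2h, Ugt8a and Aspa, in bulk RNA of corpus callosum plus cortex dissected on postnatal day 15. The genes were picked by symbol, and all 7 were among the 5282 genes of the deposited table. There were 2 samples from Pdgfra-creER;SmoM2 mice, called SmoM2 here, set against 2 from wild type (WT) mice. SmoM2 is a constitutively active Smoothened, the receptor component that relays hedgehog signals, and Pdgfra-creER is a tamoxifen-dependent recombinase driven by Pdgfra, a gene of oligodendrocyte precursors that fibroblasts also use. Both groups received tamoxifen from postnatal day 5 to 7. The labels do not say whether the WT mice carried the recombinase. Both tissues went into each sample, and the labels do not state whether the samples were separate animals, so the p-values measure only the spread between these samples. The authors kept only genes with an unadjusted p no higher than 0.05, so every gene in the table was chosen for a difference between these samples. Each gene has an expression level per sample. It was taken to be adjusted for library size and gene length, which was not tested, and comparisons of level between genes depend on that. The sources used here do not say whether the level is TPM or FPKM, and sequencing depth is unknown. Defining genes of neurons and of oligodendrocytes, main cells of the labelled tissue, were present in all 4 samples. SmoM2 replicate 1 stood apart in choroid plexus genes, with a summed level of 77.4 against 630 in SmoM2 replicate 2. Ttr made up most of these sums, at 71.24 in SmoM2 replicate 1 and 618.04 in SmoM2 replicate 2. Results that change without a library are given both ways. Below, "rose" and "fell" describe genes with an adjusted p no higher than 0.05 by the authors' deposited table.

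Myelin is a membrane unusually rich in galactolipids and in very long chain fatty acids. Fatty acid synthase builds palmitate, elongases and desaturases lengthen and unsaturate fatty acids, and ceramide synthases join them to a sphingoid base. Fatty acid 2-hydroxylase supplies the hydroxylated acyl chains of myelin lipids, and the galactosyltransferase encoded by Ugt8a turns ceramide into galactosylceramide, the precursor of sulfatide. Aspartoacylase, encoded by Aspa, releases acetate from N-acetylaspartate, and oligodendrocytes can use that acetate for lipid synthesis.

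To set the sequence before the start site of the 2 genes that rose beside that of the gene with the largest fall, the 250 bases before the RefSeq transcription start are given 5′ to 3′ from the GRCm38.p6 promoter table. They lie at chr11:120824548-120824797 on the minus strand for Fasn, chr19:10101504-10101753 on the minus strand for Fads2 and chr3:125938653-125938902 on the minus strand for Ugt8a. Capitals mark the CCAAT box on either strand, the only searched motif found in these 3 windows.
Fasn: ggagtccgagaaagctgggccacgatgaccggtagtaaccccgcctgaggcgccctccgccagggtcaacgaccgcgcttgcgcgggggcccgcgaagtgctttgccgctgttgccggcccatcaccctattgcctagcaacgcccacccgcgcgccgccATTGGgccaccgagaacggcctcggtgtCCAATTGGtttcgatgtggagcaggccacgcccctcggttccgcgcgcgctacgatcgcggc
Fads2: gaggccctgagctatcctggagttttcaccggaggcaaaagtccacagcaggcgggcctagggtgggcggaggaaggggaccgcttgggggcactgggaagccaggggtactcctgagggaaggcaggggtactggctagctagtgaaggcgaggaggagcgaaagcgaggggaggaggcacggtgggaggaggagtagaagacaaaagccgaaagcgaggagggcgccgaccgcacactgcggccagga
Ugt8a: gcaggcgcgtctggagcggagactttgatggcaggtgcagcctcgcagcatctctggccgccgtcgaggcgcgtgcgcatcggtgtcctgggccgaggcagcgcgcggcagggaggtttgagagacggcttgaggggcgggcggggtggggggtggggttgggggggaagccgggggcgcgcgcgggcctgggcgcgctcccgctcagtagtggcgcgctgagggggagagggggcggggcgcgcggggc
The Fasn window held 3 CCAAT matches, between 90 and 55 bases before the start, and 2 of them overlap each other. A CCAAT match was present in 33.8% of 32851 promoter windows of this length. The Fads2 and Ugt8a windows held none of the 6 motifs searched on both strands, which were the sterol regulatory element TCACNCCAC, CCAAT, the E-box CACGTG, the Gli site GACCACCCA, the Sox site ACAAAG and the TATA box TATAAA. The table held 7 windows for 6 of the 7 genes, 2 of them for Cers2, and Fa2h was not analysed here. None of the 7 held TCACNCCAC, GACCACCCA or ACAAAG, which were present in 1.05%, 0.225% and 16.5% of all windows. CCAAT was present in 3 of the 7 windows, those of Fasn, Aspa and one of the 2 for Cers2, so in genes of both directions. The same Cers2 window held CACGTG, present in 6.02% of all windows, and the Aspa window held TATAAA, present in 12.4%. G and C made up 69.2% of the Fasn window, 64.8% of the Fads2 window and 76.8% of the Ugt8a window, against 38.8% of the Aspa window and a mean of 53.2% over all windows.

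Fasn and Fads2 rose in SmoM2, and Elovl7, Cers2, Fa2h, Ugt8a and Aspa fell. All 7 had an adjusted p no higher than 0.05 by the authors' deposited table, where 37.3% of the 5282 listed genes did. Genes that rose made up 21.3% of the listed genes and genes that fell 16.0%. The 7 were chosen with these results known, so their share of calls is a description. Their median log2 fold change was -0.93, against 0.235 over all listed genes. Levels in SmoM2 and WT did not overlap for 6 of the 7, all but Aspa, which is near the 84.7% seen over the listed genes. The exact permutation test over samples, two-sided, cannot go below 0.333 with 2 samples against 2; it gave p = 0.333 for those 6 and p = 0.667 for Aspa. A recalculation with limma on log2(level + 1), adjusted over the 57010 tests behind the authors' adjusted p-values, passed 0 of the 7 and 0.124% of 4845 genes, namely 6. At an unadjusted p under 0.05 limma counted 6 of the 7, all but Aspa, and 55.5% of the 4845 genes. Adjusted over the 4845 rows alone, which were already selected by p-value, it passed the same 6 of the 7 and 33.4% of the genes. The calls below therefore rest on the authors' test.

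**Figure D1:**
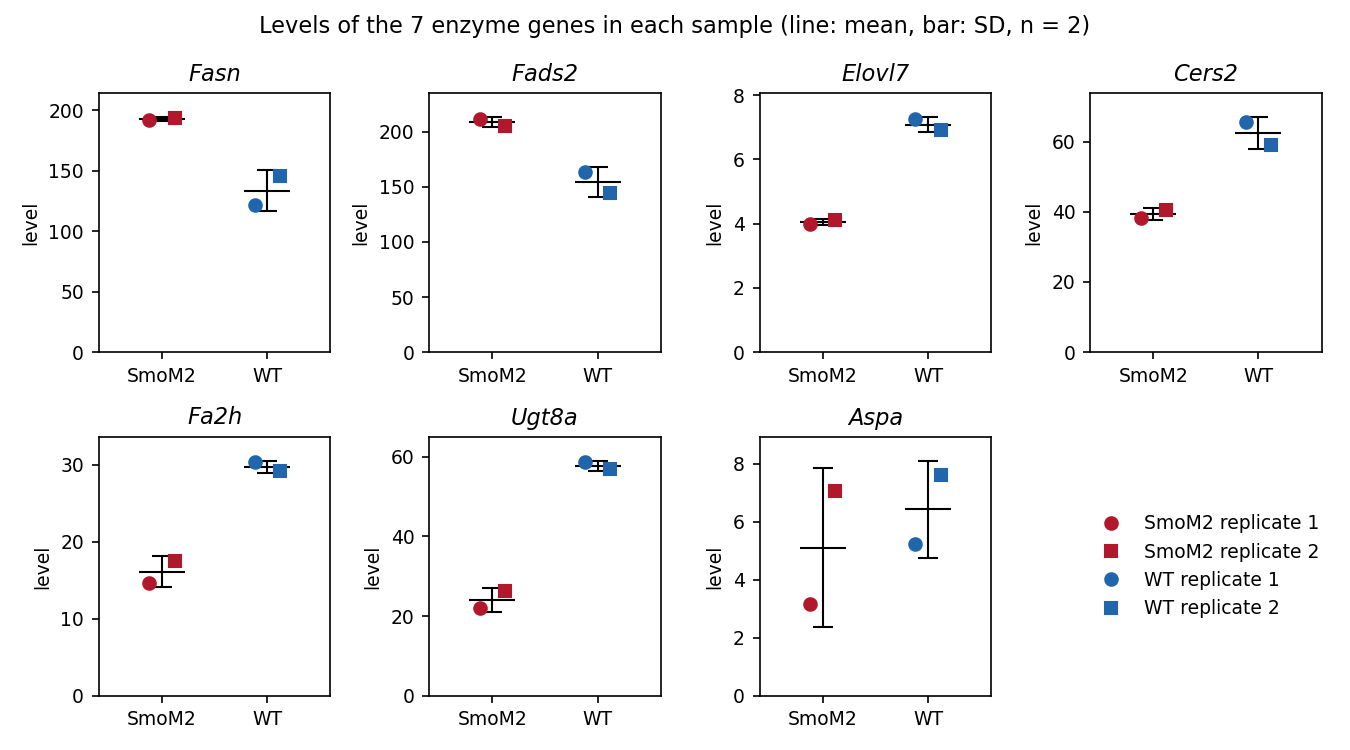
Expression level (vertical axes, from 0) of the 7 genes in each SmoM2 sample and each WT sample; points are samples, horizontal lines are means and bars are SDs (n = 2 each). Fasn and Fads2 are higher in both SmoM2 samples, Elovl7, Cers2, Fa2h and Ugt8a are lower in both, and the samples of Aspa overlap.

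Ranked by mean level, the genes stood in nearly the same order in both groups. In SmoM2 the order was Fads2, Fasn, Cers2, Ugt8a, Fa2h, Aspa and Elovl7, and the ranges of Aspa and Elovl7 overlapped. In WT it was Fads2, Fasn, Cers2, Ugt8a, Fa2h, Elovl7 and Aspa, and the ranges of Fads2 and Fasn and of Elovl7 and Aspa overlapped. Cers2 and Ugt8a were close in WT, without overlap of their ranges, and further apart in SmoM2: Cers2 had 1.74 and 1.55 times the level of Ugt8a in SmoM2, against 1.12 and 1.04 times in WT.

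Fasn, the gene of fatty acid synthase (ENSMUSG00000025153, GRCm38 chromosome 11, 120805846 to 120824547, minus strand), read 191.86 and 193.90 in SmoM2, against 121.26 and 145.31 in WT. Both SmoM2 samples lay close together and above both WT samples, which were further apart. The level averaged 193 ± 1.44 in SmoM2, against 133 ± 17.0 in WT (mean ± SD, n = 2 each), and the log2 difference was 0.54 ± 0.11 (limma, SE). The authors' deposited table gives Fasn a log2 fold change of 0.46 (adjusted p = 0.000176). Among the 938 genes that rose and reached a mean level of 5 in their higher group, 579 had a log2 fold change at least as large as that of Fasn, itself included.

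Fads2, the delta-6 desaturase gene that starts the route to long polyunsaturated fatty acids (ENSMUSG00000024665, chromosome 19, 10062765 to 10101746, minus strand), read 211.84 and 205.22 in SmoM2, against 163.80 and 144.52 in WT. Again both SmoM2 samples were above both WT samples. Its level averaged 209 ± 4.68 in SmoM2, against 154 ± 13.6 in WT (mean ± SD, n = 2 each), with a log2 difference of 0.44 ± 0.10 (limma, SE). By the authors' deposited table the log2 fold change of Fads2 was 0.36 (adjusted p = 0.00932). This rise was among the smaller ones: 849 of the same 938 genes had a log2 fold change at least as large, Fads2 included. Measured against one another, Fasn had 0.906 and 0.945 times the level of Fads2 in SmoM2 and 0.740 and 1.01 times in WT, so this ratio overlapped between the groups.

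In the list of 14 genes of acetyl-CoA supply and fatty acid synthesis, 6 besides Fasn had a row in the table; 2 rose, none fell and 4 did not pass. Their 33.3% of calls is near the 37.3% of all listed genes, and their median log2 fold change was 0.31 by the authors' deposited table. Slc25a1, the mitochondrial citrate carrier gene that exports carbon for fatty acid synthesis, read 77.19 and 82.26 in SmoM2, against 59.51 and 50.89 in WT, a log2 difference of 0.53 ± 0.11 (limma, SE). Srebf1, which encodes a transcription factor of lipid synthesis genes, read 18.99 and 17.76 in SmoM2, against 13.23 and 11.95 in WT, a log2 difference of 0.51 ± 0.13 (limma, SE). Their groups did not overlap, and their adjusted p-values by the authors' deposited table were 0.00274 for Slc25a1 and 0.00252 for Srebf1. Exons of Srebf1 overlap those of Rai1 on the opposite strand. Acly, Acaca and Mid1ip1, which act on or regulate the steps before fatty acid synthase, had log2 fold changes of 0.28, 0.29 and 0.33 without passing. Thrsp, another lipogenic gene, had -0.43 without passing.

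Elovl7, an elongase gene for long saturated and monounsaturated acyl chains (ENSMUSG00000021696, chromosome 13, 108214404 to 108285683, plus strand), read 3.99 and 4.11 in SmoM2, against 7.25 and 6.91 in WT. The spread within each group was small beside the gap between them. Its level averaged 4.05 ± 0.0849 in SmoM2, against 7.08 ± 0.240 in WT (mean ± SD, n = 2 each), with a log2 difference of -0.68 ± 0.16 (limma, SE). At these low levels the size of that difference depended on the pseudocount and was -0.42 with a pseudocount of 5. The authors' deposited table gives Elovl7 a log2 fold change of -0.93 (adjusted p = 7.16e-05). Fads2 stood 53.1 and 49.9 times above Elovl7 in SmoM2 and 22.6 and 20.9 times in WT, so the desaturase and the elongase moved apart.

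Elsewhere in desaturation and elongation no gene passed, where 37.3% of all listed genes did. Of 20 in the list, 8 had a row. Fads2 rose, Elovl7 fell and the other 6 did not pass. The median log2 fold change was -0.05 by the authors' deposited table, and the median of the limma log2 differences was 0.05, of opposite sign. Tecr, the reductase of the elongation cycle, read 626.17 and 722.13 in SmoM2, against 533.30 and 528.19 in WT, with a log2 fold change of 0.25 (adjusted p = 0.171). Elovl1, the elongase gene for very long saturated chains, read 21.04 and 20.51 in SmoM2, against 28.78 and 24.07 in WT, with a log2 fold change of -0.38 (adjusted p = 0.288). Neither of these 2 genes of chain elongation passed.

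Among genes of fatty acid uptake, activation and binding, 12 of 19 had a row. Of these 2 rose, 3 fell and 7 did not pass, with a median log2 fold change of -0.25 by the authors' deposited table. Their 41.7% of calls is near the 37.3% of all listed genes. Fabp7, the brain fatty acid binding protein gene of radial glia and glial precursors, read 314.03 and 193.27 in SmoM2, against 111.06 and 116.00 in WT. Its SmoM2 samples differed from each other more than its WT samples did, and the log2 difference was 1.11 ± 0.22 (limma, SE). Acsl3, an acyl-CoA synthetase gene, read 79.11 in both SmoM2 samples and 102.40 and 105.69 in WT, and fell with a log2 difference of -0.39 ± 0.09 (limma, SE). Its exons overlap Utp14b on the same strand. Acsl4, which favours arachidonate, fell too, and its limma log2 difference of -0.32 was -0.21 without WT replicate 2.

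Cers2, the ceramide synthase gene for very long acyl chains (ENSMUSG00000015714, chromosome 3, 95314791 to 95323599, plus strand), read 38.27 and 40.60 in SmoM2, against 65.64 and 59.13 in WT. Both SmoM2 samples were below both WT samples. The level averaged 39.4 ± 1.65 in SmoM2, against 62.4 ± 4.60 in WT (mean ± SD, n = 2 each), a log2 difference of -0.65 ± 0.10 (limma, SE). By the authors' deposited table its log2 fold change was -0.70 (adjusted p = 1.07e-07). Exons of Setdb1 and 6330562C20Rik overlap those of Cers2 on the opposite strand, and the sources used here do not say whether counting used strand.

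Fa2h, the fatty acid 2-hydroxylase gene (ENSMUSG00000033579, chromosome 8, 111345135 to 111393824, minus strand), read 14.70 and 17.55 in SmoM2, against 30.33 and 29.22 in WT. The groups were well apart, and the 2 SmoM2 samples differed more than the 2 WT samples did. Averages were 16.1 ± 2.02 in SmoM2, against 29.8 ± 0.785 in WT (mean ± SD, n = 2 each), and the log2 difference was -0.85 ± 0.13 (limma, SE). The authors' deposited table gives Fa2h a log2 fold change of -0.97 (adjusted p = 5.9e-12).

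Of 18 genes listed for ceramide synthesis, 4 besides Cers2 and Fa2h had a row. Of these 1 rose, 1 fell and 2 did not pass, with a median log2 fold change of -0.32. Among all listed genes 37.3% passed, and 4 genes are too few to tell their share of calls from that. Kdsr, the gene of the reductase that follows the first step of sphingolipid synthesis, read 8.19 and 7.97 in SmoM2, against 10.11 and 10.37 in WT and fell, with a log2 difference of -0.31 ± 0.14 (limma, SE). Sptlc1 and Sptssa, subunits of serine palmitoyltransferase, had log2 fold changes of -0.26 and -0.39 without passing. Cers1, the ceramide synthase gene of neurons that favours C18 acyl chains, went the other way from Cers2. It read 107.29 and 119.57 in SmoM2, against 74.22 and 86.87 in WT, a log2 difference of 0.49 ± 0.11 (limma, SE), and rose by the authors' deposited table (adjusted p = 0.0042). Exons of Cers1 overlap Gdf1 on the same strand, so reads of both genes may not be separable.

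Ugt8a, the gene of the enzyme that makes galactosylceramide (ENSMUSG00000032854, chromosome 3, 125865271 to 125938619, minus strand), read 21.95 and 26.27 in SmoM2, against 58.71 and 56.85 in WT. Both SmoM2 samples lay far below both WT samples. The level averaged 24.1 ± 3.05 in SmoM2, against 57.8 ± 1.32 in WT (mean ± SD, n = 2 each), and the log2 difference was -1.23 ± 0.12 (limma, SE). By the authors' deposited table Ugt8a had a log2 fold change of -1.34 (adjusted p = 1.5e-30), the largest fall of the 7 by either measure. Its fall ranked at place 43 by size among 763 genes that fell and reached a mean level of 5 in their higher group. Relative to Ugt8a, Fa2h stood at 0.670 and 0.668 in SmoM2 and at 0.517 and 0.514 in WT, so the galactosyltransferase gene was lower by more than the hydroxylase gene. In the same way Fasn was 8.74 and 7.38 times the level of Ugt8a in SmoM2 and 2.07 and 2.56 times in WT. Of the 9 genes listed for galactolipid synthesis and breakdown, Gltp was the only other one with a row. Gltp, the glycolipid transfer protein gene, read 57.93 and 55.76 in SmoM2, against 69.90 and 57.90 in WT and did not pass. Gal3st1, Galc, Arsa and Psap, which act after galactosylceramide, were not analysed here.

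**Figure D2:**
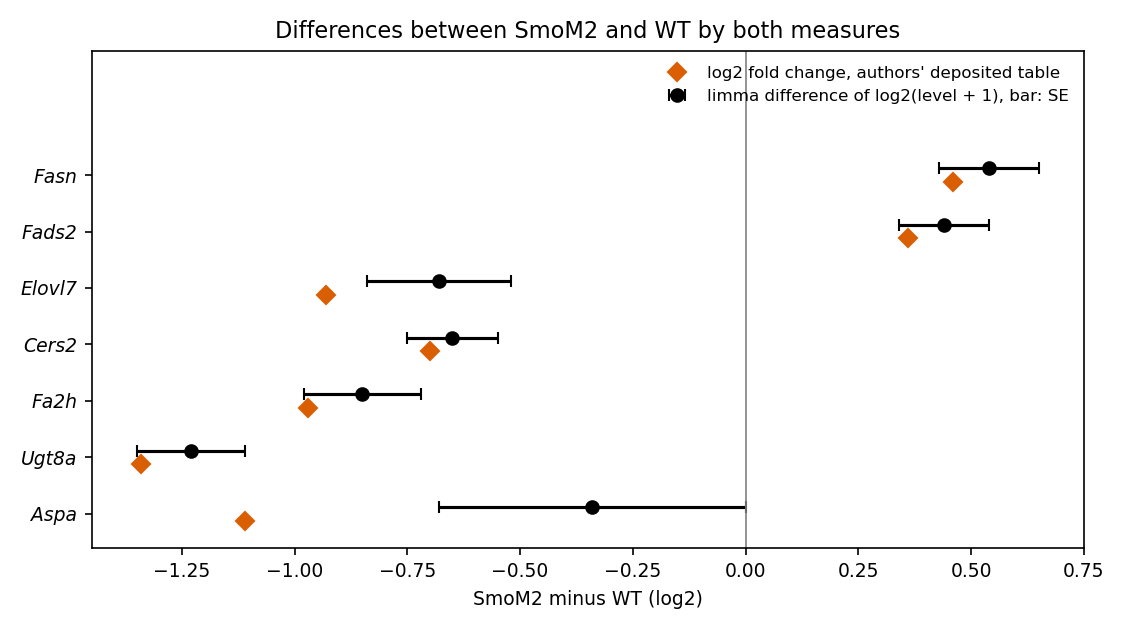
SmoM2 minus WT difference of each of the 7 genes on a log2 scale, as limma differences of log2(level + 1) with SE bars (circles) and as the log2 fold change by the authors' deposited table (diamonds). Fasn and Fads2 lie above 0 and the others below, Ugt8a is lowest at -1.23 and -1.34, and Aspa has the widest gap between its 2 measures, -0.34 and -1.11.

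Aspa, the aspartoacylase gene (ENSMUSG00000020774, chromosome 11, 73304992 to 73329596, minus strand), read 3.17 and 7.04 in SmoM2, against 5.23 and 7.61 in WT. The groups overlapped: SmoM2 replicate 2 was above WT replicate 1. Its level averaged 5.11 ± 2.74 in SmoM2, against 6.42 ± 1.68 in WT (mean ± SD, n = 2 each), and the log2 difference of -0.34 ± 0.34 (limma, SE) was no larger than its error. That difference was 0.13 without SmoM2 replicate 1, -0.81 without SmoM2 replicate 2, -0.57 without WT replicate 1 and -0.11 without WT replicate 2. By the authors' deposited table the log2 fold change was -1.11 (adjusted p = 0.00684), much further from 0 than the log2 ratio of the mean levels, -0.33. The gap between these measures was -0.78 for Aspa, lay between -0.12 and -0.04 for the other 6 genes and had a median of -0.076 over 4818 genes. Only 22 of those genes, 0.457%, had a gap as far below 0, Aspa included. GENCODE M21 lists 6 transcripts of 544 to 4171 bases for Aspa; whether the transcripts used bear on the gap was not tested. Aspa was the only one of the 7 whose groups overlapped and whose sign changed when a library was left out.

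Of 10 genes listed for N-acetylaspartate and acetate use, 5 besides Aspa had a row. Of these 2 rose, none fell and 3 did not pass, with a median log2 fold change of 0.39. Their 40.0% of calls is near the 37.3% of all listed genes. Slc13a3, a dicarboxylate transporter gene whose product carries N-acetylaspartate, read 17.25 and 16.01 in SmoM2, against 8.65 and 5.42 in WT. That is a log2 difference of 1.16 ± 0.22 (limma, SE), with both SmoM2 samples far above both WT samples. Slc25a12, the mitochondrial aspartate-glutamate carrier gene, read 115.16 and 64.62 in SmoM2, against 53.06 and 53.47 in WT. It rose by the authors' deposited table, but SmoM2 replicate 1 carried most of the difference: the limma log2 difference of 0.69 was 0.27 without that library and larger without SmoM2 replicate 2. Acss1, Rimkla and Rimklb, of acetate activation and N-acetylaspartylglutamate synthesis, had log2 fold changes of 0.32, 0.39 and 0.26 without passing.

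Ceramide's other fates showed no common direction. Of 22 genes listed for sphingomyelin, glucosylceramide, ganglioside and sphingosine metabolism, 8 had a row. Sphk1 rose, Sgms1 fell and 6 did not pass. That is 25.0% of calls, against 37.3% of all listed genes. Sphk1, the sphingosine kinase gene, read 3.81 and 3.44 in SmoM2, against 1.67 and 0.85 in WT. Its log2 difference of 1.06 ± 0.26 (limma, SE) was 0.47 with a pseudocount of 5, since its levels are low, and its exons overlap Gm29292 on the opposite strand. Sgms1, a sphingomyelin synthase gene, read 9.30 and 9.37 in SmoM2, against 11.13 and 13.76 in WT, and its limma log2 difference of -0.37 was -0.23 without WT replicate 2. Over all 9 pathway lists, 54 of the 142 genes outside the 7 had a row, of which 8 rose, 7 fell and 39 did not pass. Among all listed genes 21.3% rose and 16.0% fell. The 54 genes had a median log2 fold change of 0.23, against 0.235 over all listed genes. No listed gene lies closer to 0 than 0.154, so such a median depends mainly on how many genes were higher, here 28, and lower, here 26.

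**Figure D3:**
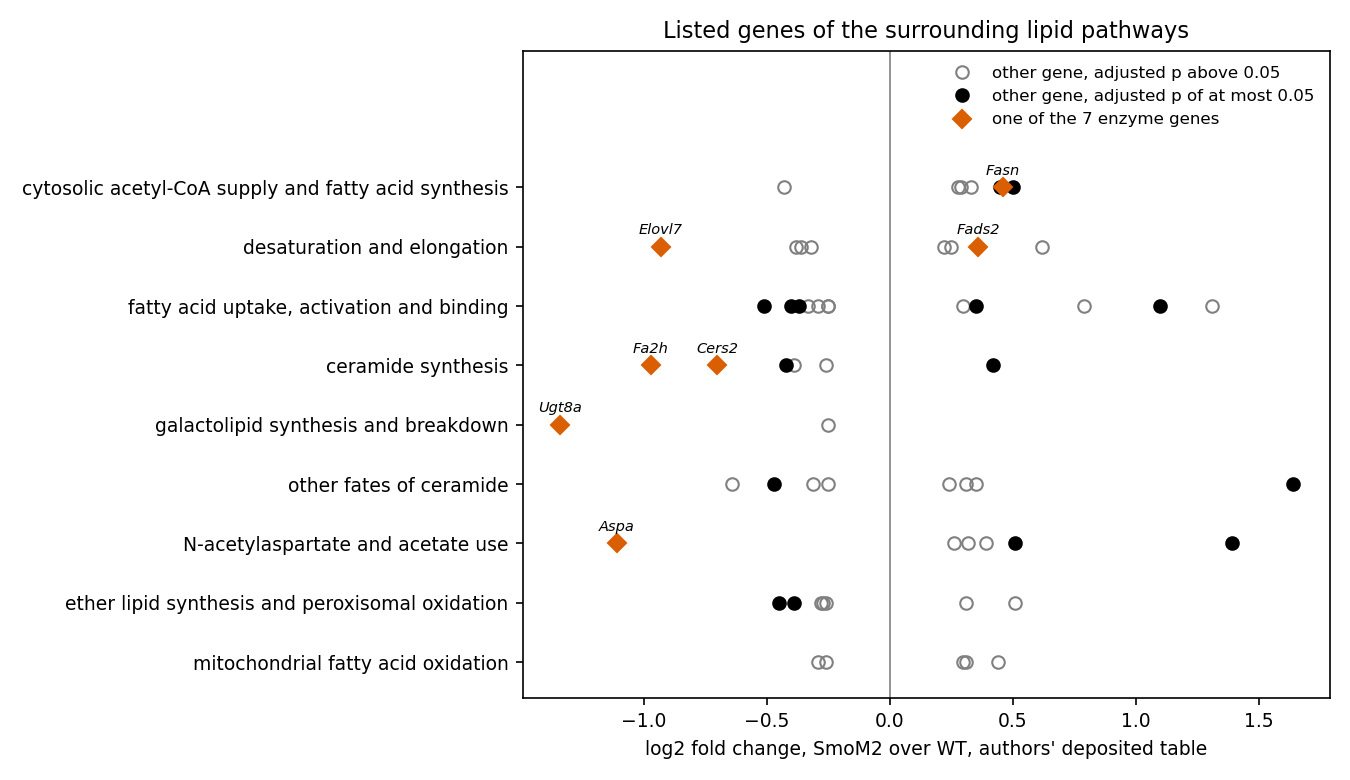
Log2 fold change (SmoM2 over WT, authors' deposited table) of each gene with a row in 9 lipid pathway lists; filled circles had an adjusted p no higher than 0.05, open circles did not, and diamonds are the 7 enzyme genes. Fasn lies above 0 in the list of fatty acid synthesis, and Ugt8a, Aspa, Fa2h and Elovl7 are the lowest points of their lists.

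Genes of mature oligodendrocytes were lower in the same samples, and in bulk RNA fewer cells of a type and less RNA per cell cannot be told apart. Of 23 genes listed for mature oligodendrocytes and myelin proteins, none of them one of the 7, 18 had a row. Every one was lower, where 46.8% of all listed genes were, and 15 fell, where 16.0% of all listed genes did. The median log2 fold change of these 18 markers was -0.89. Their summed level was 3213 and 3625 in SmoM2, against 6641 and 6235 in WT, and none was listed at 0 in a group. The highest was Mbp, which encodes myelin basic protein, at 2102 ± 207 in SmoM2, against 3764 ± 336 in WT (mean ± SD, n = 2 each). Expressed as a percentage of that summed level, 2 of the 5 genes that fell were at about the same share in both groups. Fa2h was at 0.457% and 0.484% in SmoM2 and at 0.457% and 0.469% in WT. Elovl7 was at 0.124% and 0.113% in SmoM2 and at 0.109% and 0.111% in WT. Ugt8a stayed below that proportion, at 0.683% and 0.725% in SmoM2 against 0.884% and 0.912% in WT. Cers2 was above it, at 1.19% and 1.12% in SmoM2 against 0.988% and 0.948% in WT.

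Since every gene of the sum was lower in SmoM2, a gene that rose has to stand further from WT on this scale. Fasn was at 5.97% and 5.35% of the summed level in SmoM2, against 1.83% and 2.33% in WT. Fads2 was at 6.59% and 5.66% in SmoM2, against 2.47% and 2.32% in WT. Aspa overlapped, at 0.0987% and 0.194% in SmoM2 and 0.0788% and 0.122% in WT. These shares are a description with no test.

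**Figure D4:**
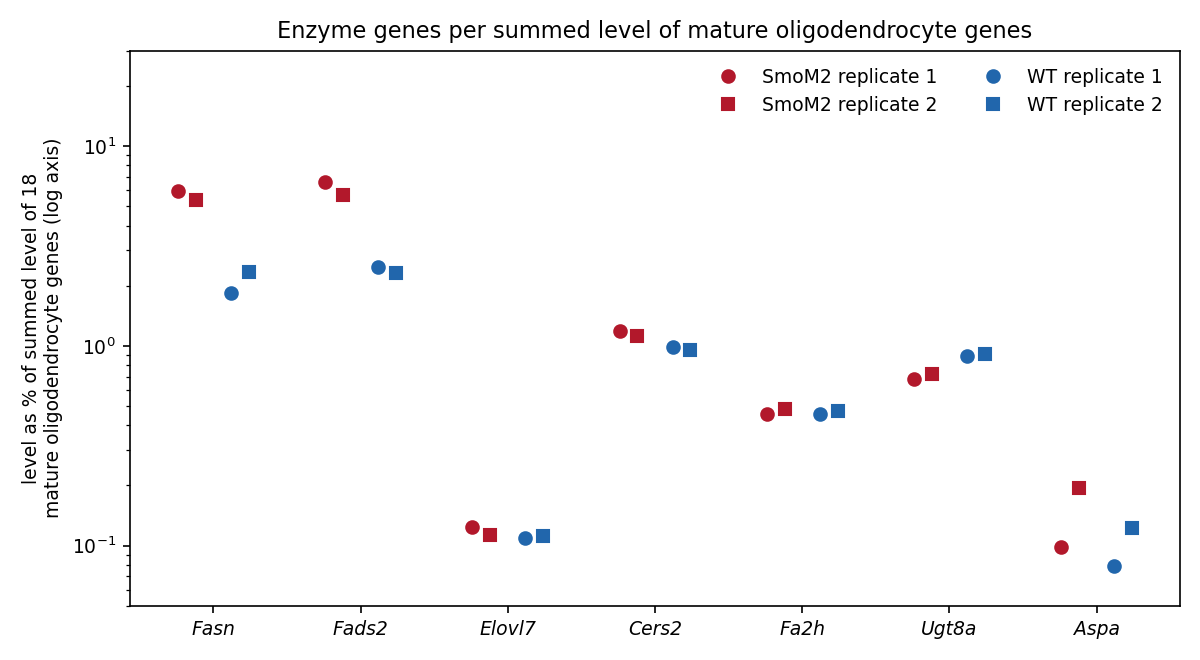
Level of each of the 7 genes as a percentage of the summed level of 18 mature oligodendrocyte genes (log axis), in each SmoM2 sample and each WT sample. Fasn, Fads2 and Cers2 are higher in SmoM2, Ugt8a is lower, Fa2h and Elovl7 lie near their WT shares, and Aspa overlaps.

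Markers of other cells moved as well, and their part in the values of the 7 genes was not tested. For comparison, 21.3% of all listed genes rose and 16.0% fell. Oligodendrocyte precursor genes had 8 of 14 in the table, 7 of them higher. Of the 8, 3 rose and 1, Tnr, fell. Their summed level, most of it from Cspg5, was 627 to 653 in SmoM2 and 489 to 499 in WT. Astrocytes also express Fasn and Fads2; 6 of 14 astrocyte genes had a row, 2 rose and 2 fell, and their sum was 1229 to 1336 in SmoM2 and 1332 to 1464 in WT. No listed marker of any set named here was at 0 in both samples of a group. Neuron genes had 7 of 14 with a row, 1 rose and 3 fell, with sums of 4147 to 4227 in SmoM2 and 3741 to 4180 in WT. Microglial genes had 6 of 12, of which 2 rose and 1, P2ry12, fell, with sums of 388 to 420 in SmoM2 and 307 to 310 in WT. Endothelial and mural genes had 8 of 12, of which 5 rose and 1, Slco1a4, fell. The sums of that set were 248 to 324 in SmoM2 and 176 to 196 in WT. Meningeal fibroblast genes rose in all 10 of 12 with a row, with sums of 216 to 253 in SmoM2 and 112 to 119 in WT. Choroid plexus and ependymal genes had 6 of 12, all lower, with sums of 77.4 and 630 in SmoM2 and 1186 to 1222 in WT. The ependymal markers Foxj1, Ccdc153, Tmem212 and Rsph1 had no row, so the sums cover choroid plexus genes. Ttr made up most of the sums and of the gap between the SmoM2 samples. All 6 blood genes fell, with sums of 65.6 to 121 in SmoM2 and 450 to 662 in WT. SmoM2 replicate 1, the library lowest in choroid plexus genes, was also the lowest for Aspa. The other samples did not share 1 order. WT replicate 1 had the highest choroid plexus sum, 1222, with Aspa at 5.23, while SmoM2 replicate 2 had a sum of 630 with Aspa at 7.04. A link between them was not tested.

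Compared by pattern over the 4 samples, Elovl7, Cers2 and Fa2h were close to each other, and Ugt8a and Aspa stood further off. The measure was the Euclidean distance between centred log2(level + 1) values, where a smaller distance is a closer pattern. Elovl7 and Cers2 were the closest pair of the 7, at 0.077, followed by Elovl7 and Fa2h at 0.23 and Cers2 and Fa2h at 0.24. Fasn and Fads2 were at 0.33. Ugt8a was further than that from the other genes that fell, at 0.38 from Fa2h, 0.57 from Elovl7 and 0.60 from Cers2, and Aspa was at 0.80 or more from every other gene. Among 4803 other listed genes, Fa2h had Mbp as its second closest, at 0.097, after Fam161a at 0.092. The closest to Ugt8a were Sult1a1, Tmem88b and Mt1, at 0.099 to 0.14. Elovl7 had Gm45338, Ociad2 and Gjc3 at 0.047 to 0.087, and Cers2 had Ociad2, Depdc7 and Aldh1a1 at 0.068 to 0.087. For Fasn they were Cep250, Rell2 and Atg2a at 0.020 to 0.033, and for Fads2 they were Rps12, Arf5 and Ehd1 at 0.015 to 0.025. The closest to Aspa, Gm38312 and Krt18, were further off, at 0.19 and 0.23. With 4 samples many genes share any pattern, and these distances have no test. They also depend on the 1 added to each level, which shrinks differences of low genes such as Elovl7. With 0.1 added, limma log2 differences were -0.79 for Elovl7, -0.66 for Cers2 and -0.89 for Fa2h. With 1 added they were -0.68, -0.65 and -0.85. Distances with another pseudocount were not tested.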

How the data were processed

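Total RNA of corpus callosum with cortex, 1 microgram per sample, was made into TruSeq libraries, per the labels' protocols; columns were tied to samples by the pairing in the series text. RSEM, DESeq2 and GRCm38.p6 are named without version or role, per the submitters' processing notes. The authors deposited an expression level (a signal, TPM or FPKM not stated) per sample, the mean of each group, the SmoM2/WT ratio (fold change), the log2 of that ratio, and raw and adjusted p-values, for 5282 genes with p of at most 0.05. The series text names a log2 fold change of at least 1, which 775 of the listed genes reach. Depth is unknown.

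The design was written for levels or counts, and the branch for levels of selected genes was used. A call is an adjusted p no higher than 0.05 by the authors' deposited table. limma 3.58.1 (R 4.3.3) took log2(level + 1) values, fitted with a mean-variance trend, of 4845 genes of mean level 1 or more, adjusted by Benjamini-Hochberg over 57010 tests, the number implied by the authors' adjusted p-values. Its fold changes understate those of low genes. The limma fit was tested on simulated data without selection by p-value and adjusted over the rows alone. The adjustment over 57010 tests was not tested in that way. The 7 genes, the 9 pathway and 9 cell type lists, the 6 motifs and all choices were made with earlier results of these data known. The text names the 7 genes; in each pathway list up to 3 called genes with the largest fold and no overlap; the highest called gene of each cell type list; and the 3 most alike genes of each of the 7. A gene named by these rules may not be reported here. Of the cell type genes only Mbp and Ttr are given with values. Other named genes (among them Acly, Acaca, Mid1ip1, Thrsp, Tecr, Elovl1, Sptlc1, Sptssa, Gltp, Acss1, Rimkla and Rimklb) were chosen after their values were seen. Coordinates and overlaps are from GENCODE M21 (GRCm38), promoters from RefSeq (GRCm38.p6). The alternatives were other pseudocounts, scalings, filters, variance models, call rules, leaving out each library and a replicate block.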

Additional observations from a re-analysis of the deposited data

How the results depend on the processing

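The directions of Fasn, Fads2, Elovl7, Cers2, Fa2h and Ugt8a held in all 14 settings tried for each, and that of Aspa turned to 0.13 without SmoM2 replicate 1. For those 6 genes most settings could not turn the direction. Filters, variance model, replicate block and adjustment leave the difference as it is. Where groups do not overlap, another pseudocount or a library left out keeps the sign. Only the scalings (quantile normalization, equal medians, totals without mitochondrial and globin genes) could have turned it. With a library left out, limma log2 differences ran from 0.41 to 0.67 for Fasn, 0.35 to 0.53 for Fads2, -0.71 to -0.65 for Elovl7, -0.72 to -0.57 for Cers2, -0.97 to -0.73 for Fa2h, -1.36 to -1.11 for Ugt8a and -0.81 to 0.13 for Aspa. Quantile normalization moved the median difference of all genes by -0.126; Fasn was then at 0.41, Fads2 at 0.34 and Ugt8a at -1.35. The 7 calls by the authors' deposited table stayed 7 at an adjusted p no higher than 0.01 and were 2, Ugt8a and Aspa, with a log2 fold change of at least 1 either way. limma passed 0 of the 7 in every setting but one: adjusted over the rows in the table, it passed 6 of the 7 and 33.4% of all genes. Over all genes it passed 6, against 0 with quantile normalization, 0 without a filter on low levels, 3 without the variance trend, 20 with the replicate block and 0 to 2 with a library left out. The replicate numbers are not stated to pair samples. The deviations of SmoM2 replicate 1 and WT replicate 1 correlated at -0.0934 over 4845 genes, which does not settle whether samples were paired. With the block 0 of the 7 passed. Without counts, the depth behind the low levels of Elovl7 and Aspa is unknown.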

Other observations

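Genes of ether lipid synthesis and peroxisomal oxidation, which make plasmalogens and shorten very long chain fatty acids, had 7 of 19 members in the table. Abcd2 and Far1 fell, 5 did not pass and the median log2 fold change was -0.27 by the authors' deposited table. That is 28.6% of calls, against 37.3% of all listed genes. Abcd2, a peroxisomal transporter gene for very long chain acyl-CoA, read 12.57 and 12.07 in SmoM2, against 13.93 and 18.48 in WT; its limma log2 difference of -0.36 was -0.16 without WT replicate 2 and -0.55 without WT replicate 1. Far1, the fatty acyl-CoA reductase gene of plasmalogen synthesis, read 22.29 and 16.90 in SmoM2, against 21.40 and 25.84 in WT, so its groups overlapped. Mitochondrial fatty acid oxidation had 5 of 19 members in the table and none passed, where 37.3% of all listed genes did. Of the 5, 3 were higher and 2 lower. Cpt1a and Cpt1c, the carnitine palmitoyltransferase genes, had log2 fold changes of 0.31 and 0.30, while Etfa and Hadhb had -0.26 and -0.29. Far1, Cpt1a, Cpt1c, Etfa and Hadhb were chosen after their values were seen.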
